A study of Homo sapiens with 6 samples.

Results

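The genes described here are 39 genes of regulated vesicle exocytosis, that is, 12 synaptotagmins, 5 SNARE proteins with their ATPase, 4 fusion and priming regulators, 9 vesicle membrane and surface proteins, 4 active zone scaffolds and 5 granins with their chaperones. They were taken from a list by name, out of 20499 genes named on the array. Each gene was represented by 1 probe, chosen by its mean signal as the brightest over all 6 arrays, so that the level of the probe, but not the difference between the groups, entered the choice. Levels are therefore given as a description. The genes themselves, and the further lists below, were chosen with earlier results of these data known. Shares of listed genes that passed are thus a description as well.

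Gene expression was measured by 1-colour (Cy3) hybridisation to Agilent SurePrint arrays in the Ewing sarcoma cell line A673. Both groups carried the tetracycline repressor (TR) and a lentiviral vector inducible by doxycycline, and stable clones had been selected with zeocin. In A673/TR/LOX-PP (n = 3) the vector encoded the propeptide of the enzyme lysyl oxidase (LOX-PP), whereas in A673/TR/empty (n = 3), the control, it carried no LOX sequence. The labels give doxycycline at 1 uM for 72 h for all samples, whereas the methods give 1 µg/ml for induction and no dose for the arrays. The methods name doxycycline with certainty for the LOX-PP cells alone, and it remains unclear whether it was also added to the control. The clones used had been picked for strong induction, hence a difference between clones and an effect of the propeptide cannot be told apart.

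Regulated exocytosis releases transmitters and hormones stored in vesicles. Vesicles carry Rab GTPases, are tethered at the membrane by active zone scaffolds and are primed by proteins of the UNC13 and CADPS families. The vesicle SNARE VAMP then zips with SNAP25 and syntaxin, while complexin holds the complex until a synaptotagmin binds Ca2+ through its C2 domains and fusion follows. Synaptotagmins that do not bind Ca2+ act in trafficking and granule maturation instead. Small synaptic vesicles store classical transmitters, whereas dense-core granules, rich in granins, store peptides and amines. Ewing sarcoma cells are known to express several neural genes.

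The identity of the cells was checked with 8 genes typical of Ewing sarcoma (CD99, NKX2-2, NR0B1, STEAP1, CAV1, LIPI, CCND1 and PRKCB). All 8 were well above background on all 6 arrays and 0 of 8 passed the threshold between the groups, although NKX2-2 passed as higher with quantile normalization (1.11, adjusted p = 0.0496) and normexp (1.12, adjusted p = 0.0238). Their summed linear level, relative to the 75th percentile of the array, was 213.6 to 241.0 in the control and 246.8 to 308.6 in the LOX-PP cells, without overlap. Its largest part was CAV1, at 59.5 to 68.0 and 61.4 to 88.3, which overlapped. Unlike the differences below, neither this sum nor those of the other markers is corrected for the median difference of all tested probes (0.13 on the log2 scale). The narrow gap between the groups is therefore not read as a change. The only LOX probe gave 0.13 ± 0.22 (SD, n = 3) on the log2 scale in the control and -0.70 ± 0.58 (SD, n = 3) in the LOX-PP cells, with an adjusted p of 0.217, so that it was not higher where the propeptide was to be expressed. Whether this probe lies in the propeptide cDNA is not stated in the sources used here, and directions rest on the labels. Of all gene spots, 56.9% to 74.8% were well above background per array, and no spot was saturated. LOX-PP replicate 1 was alone on slide 2 and scan 2, while the other 5 arrays shared slide 1 and scan 1.

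Values below are log2 signals over the 75th percentile of the array. Differences are LOX-PP minus control, relative to the median difference of all tested probes (0.13), with 3 arrays per group. A probe with several spots, such as that of VAMP1 with 10, counted as well above background on an array when any of its spots was. A probe was tested when 3 or more of the 6 arrays had it well above background, and passed when its adjusted p (limma with Benjamini-Hochberg adjustment over all 32647 tested probes) was under 0.05. Of these probes, 5.66% passed, 3.31% higher and 2.36% lower in the LOX-PP cells.

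Of the 39 genes, 33 were tested and 5 passed. SYT4, SYT3 and SV2B were higher in the LOX-PP cells, and SYT11 and CPLX1 were lower. These 5 are 15.2% of the tested genes, each counted by its brightest probe, beside the 5.66% of all tested probes. Counted by probe, 5 of the 46 tested probes of the listed genes passed. Since the list was chosen with earlier results of these data known, these shares and those below are not a test. The median difference of the 33 tested genes was 0.08, with 19 above and 14 below the median of all tested probes. Groups did not overlap in 13 of the 33 genes (7 higher and 6 lower), beside 29.5% of all tested probes, and 11 of the 33 had an unadjusted p under 0.05, beside 21.3%. Detection was uneven, since 23 of the 39 genes were well above background on all 6 arrays and 4 on none, and no gene was tested through the arrays of 1 group alone.

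**Figure D1:**
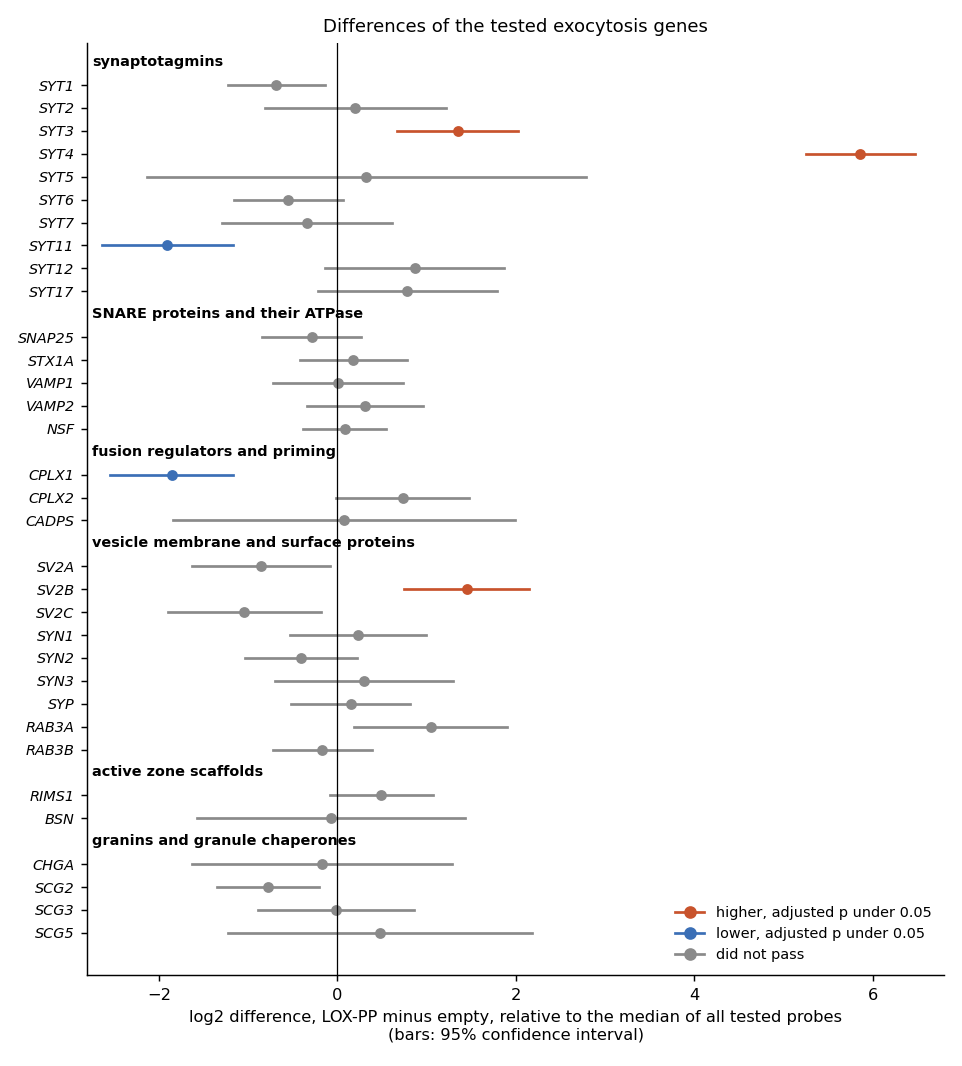
Differences of the 33 tested genes, LOX-PP minus control, on the log2 scale and relative to the median of all tested probes, by role. Points are the difference and bars its 95% confidence interval; SYT4 at 5.86 lies apart from the others, which range from -1.90 to 1.45.

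The sequence upstream of the start of transcription is shown for 4 of the 5 genes that passed, since the results turn on the genes that passed. It was taken from RefSeq (GRCh38.p14), where 29 of the 39 genes had an entry; CPLX1 had none. Each line gives the 250 bases before the start, 5′ to 3′ on the strand of the gene, and capitals mark the letters TCAGCACC or their reverse complement. These letters form the left end of RE1, the element bound by REST, a repressor of neuronal genes.

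SYT4: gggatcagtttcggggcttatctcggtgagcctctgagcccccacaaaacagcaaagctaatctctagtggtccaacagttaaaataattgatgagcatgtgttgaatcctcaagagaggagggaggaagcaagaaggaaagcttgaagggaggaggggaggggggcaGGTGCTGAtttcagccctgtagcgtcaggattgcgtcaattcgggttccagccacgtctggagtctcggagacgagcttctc
SYT3: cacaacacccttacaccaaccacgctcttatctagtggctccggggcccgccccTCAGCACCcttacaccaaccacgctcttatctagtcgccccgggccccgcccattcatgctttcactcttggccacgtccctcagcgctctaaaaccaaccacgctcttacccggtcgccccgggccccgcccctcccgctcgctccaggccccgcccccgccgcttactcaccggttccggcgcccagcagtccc
SV2B: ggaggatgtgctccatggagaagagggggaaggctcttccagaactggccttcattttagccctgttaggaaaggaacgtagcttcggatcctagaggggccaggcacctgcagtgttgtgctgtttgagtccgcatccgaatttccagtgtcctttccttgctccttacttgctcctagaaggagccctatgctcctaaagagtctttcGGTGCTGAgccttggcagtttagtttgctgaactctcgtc
SYT11: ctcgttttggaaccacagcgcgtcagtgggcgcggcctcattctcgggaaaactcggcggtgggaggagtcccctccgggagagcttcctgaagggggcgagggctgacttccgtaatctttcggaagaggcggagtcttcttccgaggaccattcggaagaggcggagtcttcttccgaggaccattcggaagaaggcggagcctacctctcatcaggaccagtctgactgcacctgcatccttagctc

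The SYT4 sequence is chr18:43277491-43277740 on the minus strand, and the match begins 82 bases before the start. The SYT3 sequence is chr19:50658106-50658355 on the minus strand, 1 of 3 entries for that gene, with the match 196 bases before the start. The SV2B sequence is chr15:91099338-91099587 on the plus strand, 1 of 4 entries, with the match 40 bases before the start. The SYT11 sequence, chr1:155859317-155859566 on the plus strand, holds no match. All 3 genes that rose thus had the letters in an entry, while the other 2 entries of SYT3 and the other 3 of SV2B lacked them. SV2C, SYN1 and PCLO held the letters too. Of these SV2C (-1.04) did not pass and was called lower in 2 alternatives given below. SYN1 (0.24) did not pass either, so that the letters occurred in genes with differences of either sign. PCLO was not tested, and its approximate bound, given below, was 2.51-fold lower. Over the 41 entries of the listed genes 14.6% held the letters on either strand, and over all 35116 entries 1.32% did. Other motifs, also searched on both strands, were the cAMP response element TGACGTCA (SYN1 and CHGA, 1.65% of all entries) and the repeat GGAAGGAA (SYN2 and SCG3, 3.06% of all entries), and neither was in a gene that passed. The motifs were chosen with the results known, and a match in these letters is a description and not a binding site. Only the left end of RE1 was searched, so that a match does not show whether the rest of the element is present. REST itself was at -0.84, -0.62 and -0.96 in the control and at 0.55, -0.31 and -0.26 in the LOX-PP cells. Its groups did not overlap, but the difference of 0.68 ± 0.29 (SE) did not pass (adjusted p = 0.178).

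Among the synaptotagmins, SYT4 showed the largest difference of the listed genes. SYT4 resides on dense-core granules and its first C2 domain does not bind Ca2+. In the control it was at -4.64, -4.27 and -4.29, well above background on 2 of these 3 arrays, and in the LOX-PP cells at 1.44, 1.36 and 1.97. All 3 LOX-PP arrays lay far above all 3 control arrays, from a control level close to background to a level above the 75th percentile of the array. The difference was 5.86 on the log2 scale (95% interval 5.25 to 6.47), or 58.1-fold, with an adjusted p of 0.00018. It passed in all 15 distinct alternatives in which the probe was tested, with differences of 4.99 to 6.05, and within slide 1 it was 5.90 (adjusted p = 0.00124).

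SYT11, the closest relative of SYT4 and likewise unable to bind Ca2+ through that domain, moved in the opposite direction. In the control it was at -0.19, -0.01 and 0.08, and in the LOX-PP cells at -2.42, -1.62 and -1.40. The groups did not overlap, and LOX-PP replicate 1, alone on its slide, was the lowest array. SYT11 was lower by 3.74-fold (difference of -1.90, 95% interval -2.64 to -1.17, adjusted p = 0.0237), and within slide 1 the difference was -1.64 (adjusted p = 0.0198). The call was lost without control replicate 1, 2 or 3 (adjusted p = 0.108, 0.117 and 0.0662) or LOX-PP replicate 2 (adjusted p = 0.0587).

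SYT3, a Ca2+ sensor of high affinity, was at -1.39, -1.85 and -1.09 in the control and at -0.01, 0.35 and -0.24 in the LOX-PP cells. Every LOX-PP array was above every control array, by a margin smaller than for SYT4. The difference was 1.35 (95% interval 0.67 to 2.02), or 2.55-fold, with an adjusted p of 0.0329. This call was lost within slide 1, that is, without LOX-PP replicate 1 (1.33, adjusted p = 0.0526), and also without control replicate 1 or 2 or LOX-PP replicate 2 or 3 (adjusted p = 0.153, 0.141, 0.0899 and 0.0589).

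SYT1, the sensor of fast transmitter release, had the brightest probe among the synaptotagmins. It was at 2.85, 3.25 and 2.82 in the control and at 2.57, 2.23 and 2.45 in the LOX-PP cells. The groups did not overlap, but the difference of -0.68 (95% interval -1.23 to -0.14) did not pass (adjusted p = 0.223). A second SYT1 probe, designed on another transcript, had a difference of 0.41 with overlapping groups (adjusted p = 0.403), so that the probes of this gene lay on opposite sides of the median.

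The other synaptotagmins did not pass. SYT12 had a difference of 0.86 (95% interval -0.14 to 1.87) and SYT17 one of 0.78 (95% interval -0.22 to 1.79), and neither is regarded as a Ca2+ sensor. SYT6 had a difference of -0.55 with groups that did not overlap (adjusted p = 0.393), and SYT2, the companion of SYT1 in fast release, one of 0.20. SYT7, the slow sensor of high affinity, was at -0.34 (95% interval -1.29 to 0.61) and SYT5, a granule synaptotagmin, at 0.32 (95% interval -2.13 to 2.78). Both were well above background on 2 control arrays and 1 LOX-PP array, and the interval of SYT5 would include a difference as large as that of SYT3. SYT9 and SYT13 were well above background on 0 arrays and were not tested.

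**Figure D2:**
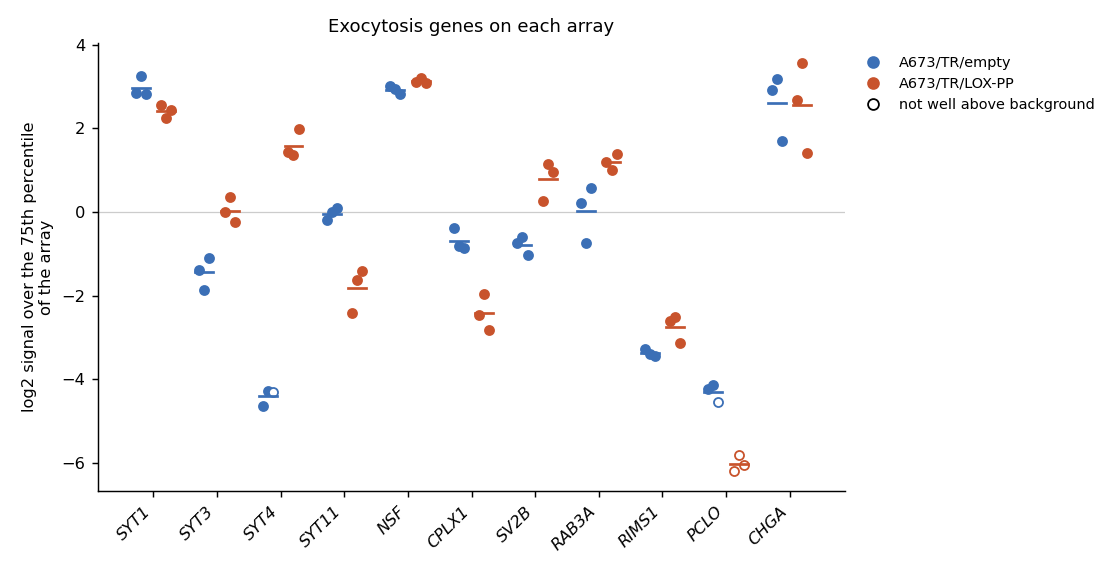
Log2 signal over the 75th percentile of the array for the 11 genes described array by array. Points are single arrays (3 per group), horizontal lines group means and open points arrays on which the probe was not well above background; the groups are apart for all of these genes except CHGA. Levels of different genes come from different probes and are not comparable.

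None of the 5 SNARE genes passed. NSF, the ATPase that takes used SNARE complexes apart, had the brightest probe of this group, at 3.02, 2.93 and 2.82 in the control and 3.11, 3.20 and 3.08 in the LOX-PP cells. The LOX-PP arrays were all above the control arrays, but relative to all tested probes the difference was 0.08 (95% interval -0.38 to 0.54, adjusted p = 0.593). Its other 2 probes had differences of 0.73 and 0.74 with groups that did not overlap (adjusted p = 0.166 and 0.0647). For SNAP25, a SNARE of the plasma membrane, the difference was -0.29 (95% interval -0.84 to 0.27), and for its partner STX1A 0.18 (95% interval -0.42 to 0.78). The vesicle SNAREs VAMP1 and VAMP2 had differences of 0.01 (95% interval -0.72 to 0.73) and 0.31 (95% interval -0.34 to 0.96). All 5 SNARE genes were well above background on all 6 arrays, and these intervals of the brightest probes leave room for differences of up to 0.96. Other probes reached further. A second STX1A probe had 0.79 (95% interval 0.04 to 1.54, adjusted p = 0.159) with groups that did not overlap. The other VAMP2 probes had 0.65 (95% interval 0.01 to 1.29, adjusted p = 0.163), also without overlap, and 0.17 (adjusted p = 0.614).

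Among the fusion and priming regulators, CPLX1 was lower in the LOX-PP cells. CPLX1 encodes complexin 1, which clamps the assembled SNARE complex and assists its triggering by Ca2+. It was at -0.39, -0.82 and -0.85 in the control and at -2.46, -1.96 and -2.83 in the LOX-PP cells. The groups were well apart, with control replicate 1 the highest array and LOX-PP replicate 3 the lowest. The difference was -1.86 (95% interval -2.54 to -1.17), or 3.62-fold lower, with an adjusted p of 0.0213, and within slide 1 it was -1.87 (adjusted p = 0.0409). The call was lost without control replicate 1 or 2 or LOX-PP replicate 3 (adjusted p = 0.125, 0.0942 and 0.0556).

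CPLX2, the paralogue of CPLX1, had a difference of the opposite sign, 0.73 (95% interval -0.01 to 1.48, adjusted p = 0.178), with groups that did not overlap and a second probe at 0.59. The intervals of the complexins do not overlap, but the difference between them comes from different probes and was not tested. CADPS, a priming factor of dense-core granules, was at 0.07 with a wide interval (-1.84 to 1.98), and the priming factor UNC13A was well above background on 0 arrays.

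Of the 9 vesicle membrane and surface genes only SV2B passed. The SV2 proteins are transporter-like glycoproteins of vesicles that bind synaptotagmin 1. SV2B was at -0.74, -0.60 and -1.02 in the control and at 0.25, 1.15 and 0.97 in the LOX-PP cells. All LOX-PP arrays were above all control arrays, and LOX-PP replicate 1 was the closest to the control. The difference was 1.45 (95% interval 0.75 to 2.15), or 2.73-fold, with an adjusted p of 0.0302, and within slide 1 it was 1.68 (adjusted p = 0.0131). The call was lost without control replicate 1, 2 or 3 (adjusted p = 0.145, 0.113 and 0.0843) or LOX-PP replicate 2 or 3 (adjusted p = 0.0826 and 0.084).

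Both paralogues of SV2B had differences below 0. SV2C had -1.04 (95% interval -1.90 to -0.18, adjusted p = 0.209) with groups that overlapped, and it passed with quantile normalization (-1.18, adjusted p = 0.0268) and with normexp background correction (-0.93, adjusted p = 0.0176). SV2A had -0.86 (95% interval -1.63 to -0.09, adjusted p = 0.255) with groups that did not overlap and a second probe at -0.39. RAB3A, the Rab GTPase of synaptic vesicles, had the brightest probe of this group. It was at 0.22, -0.74 and 0.57 in the control and at 1.19, 1.01 and 1.38 in the LOX-PP cells. The LOX-PP arrays were all higher, with control replicate 2 far below the others, and the difference of 1.05 (95% interval 0.19 to 1.90) did not pass (adjusted p = 0.121). Its paralogue RAB3B had a difference of -0.17 (95% interval -0.72 to 0.38). The synapsins, which tie vesicles to the cytoskeleton, had differences of 0.24 (SYN1), -0.41 (SYN2) and 0.30 (SYN3), and the membrane protein synaptophysin (SYP) one of 0.15, all with adjusted p over 0.5. A second SYN3 probe gave 0.69 (adjusted p = 0.106).

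Active zone scaffolds organise vesicles at the site of release, and the probes of the 4 listed here were dim. RIMS1 was at -3.27, -3.40 and -3.44 in the control and at -2.60, -2.50 and -3.14 in the LOX-PP cells. The groups did not overlap, but the difference of 0.49 (95% interval -0.09 to 1.07) did not pass (adjusted p = 0.208). PCLO was at -4.23, -4.14 and -4.54 in the control, well above background on 2 of 3 arrays, and at -6.18, -5.80 and -6.05 in the LOX-PP cells, well above background on 0 of 3. It was thus measured in too few arrays to be tested, and the LOX-PP value is only a bound. PCLO is given as 2.51-fold lower by an approximate bound. This sets the mean of the control against the lowest signal well above background on each LOX-PP array, or the probe signal where higher. It is approximate because that mean includes control replicate 3, on which the probe was not well above background. The other 2 PCLO probes were well above background on 0 arrays. BSN had a difference of -0.07 (95% interval -1.57 to 1.43), and RIMS2 was well above background on 0 arrays.

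The granins, acidic proteins that form the core of secretory granules, did not pass either. CHGA, the brightest of them, was at 2.92, 3.17 and 1.69 in the control and at 2.69, 3.56 and 1.41 in the LOX-PP cells. The groups overlapped fully, with replicate 3 low in both, and the difference of -0.17 had a wide interval (-1.63 to 1.29, adjusted p = 0.978). SCG2 had a difference of -0.78 (95% interval -1.35 to -0.20, adjusted p = 0.184) with groups that did not overlap. SCG3, which binds CHGA in the granule membrane, had -0.02 (95% interval -0.89 to 0.85), and SCG5, the chaperone of the convertase PCSK2, 0.48 (95% interval -1.23 to 2.18). CHGB was well above background on 1 array of each group and was not tested.

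Of the 39 genes, 14 had more than 1 probe and 9 had more than 1 tested probe. Of the 60 probes 46 were tested, and 0 of the 13 tested probes beyond the brightest passed. The probes of SYT1 and SYT2 lay on both sides of the median of all tested probes, and those of the other 7 genes on the same side. Each of the 5 genes that passed had a single probe, so that no second probe bears on these calls.

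**Figure D3:**
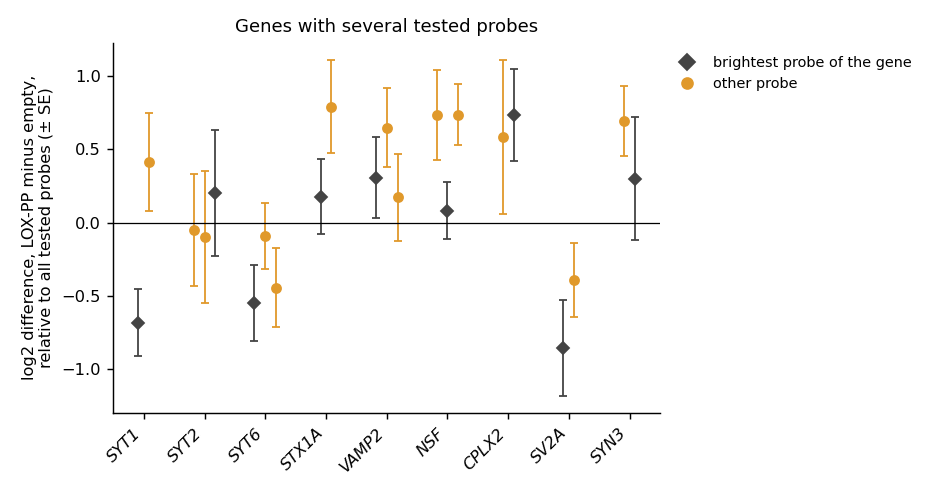
Differences of all tested probes of the 9 genes with more than 1, LOX-PP minus control, on the log2 scale and relative to all tested probes (± SE of the limma fit). Diamonds are the brightest probe of each gene and circles its other probes; SYT1 is split, at -0.68 and 0.41, and the 3 NSF probes range from 0.08 to 0.74.

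The changes of the 5 genes were recomputed under 18 alternative settings of the processing. The slide as a block, slide 1 alone and leaving out LOX-PP replicate 1 gave the same fit, so that 16 settings are distinct. None of the 5 changed sign. SYT4 passed wherever it was tested, whereas of the 16 distinct settings SYT3 was lost in 8, SV2B in 8, and SYT11 and CPLX1 in 6 each. Beside the arrays left out, named above for each gene, all 4 were lost without a filter on dim probes and with the methods' t-test, and all but SYT11 with a replicate block.

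**Figure D4:**
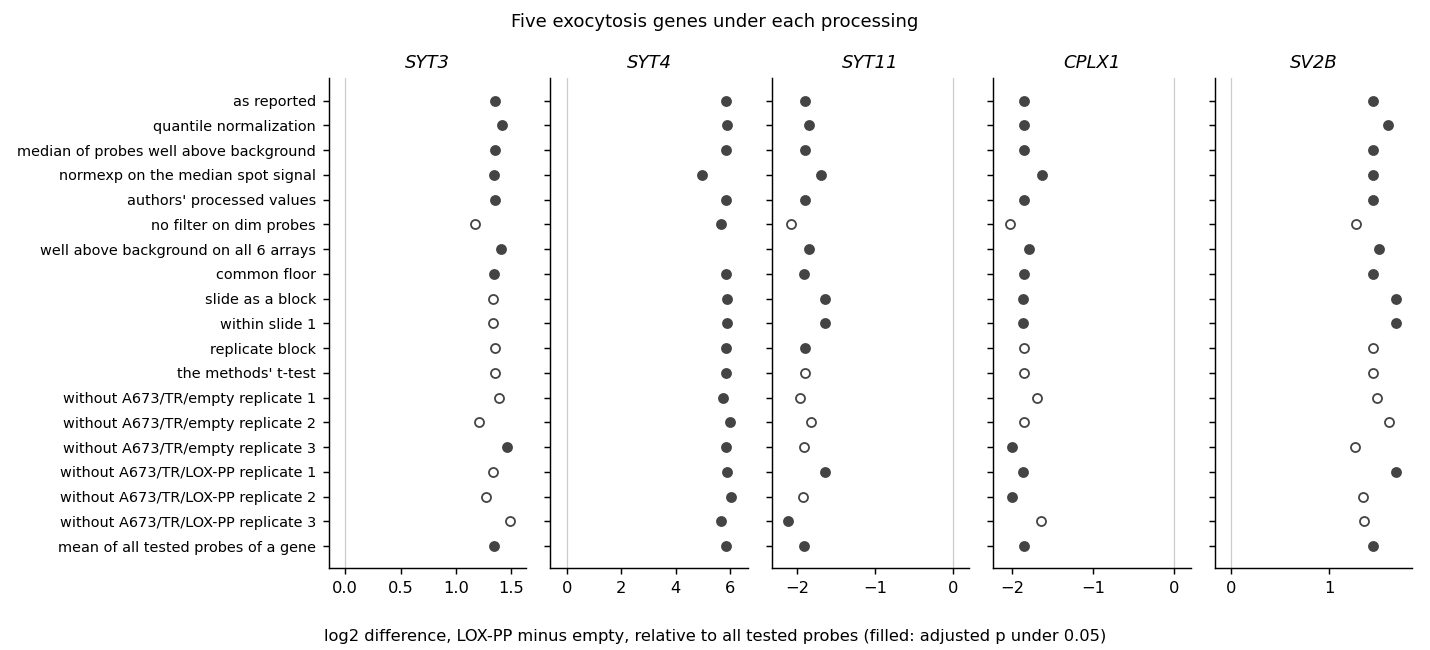
Differences of the 5 genes that passed, LOX-PP minus control, on the log2 scale and relative to all tested probes, under each processing setting (both slide settings are the same fit as leaving out LOX-PP replicate 1). Filled points passed the threshold and open points did not; each panel has its own scale, with the gray line at 0. SYT4 stays between 4.99 and 6.05, and the other 4 genes keep their sign while losing the call under several settings.

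A second list held 93 further genes of exocytosis with a probe, of which 84 were tested. Of these 5 were higher and 2 lower, 8.33% of the tested genes beside the 5.66% of all tested probes, and the median difference was -0.09. The largest was RPH3AL, encoding Noc2, a Rab effector on dense-core granules. RPH3AL was at -2.86, -3.40 and -2.49 in the control and at 0.42, 0.95 and 0.63 in the LOX-PP cells. The groups were far apart, and the difference of 3.46 ± 0.30 (SE, adjusted p = 0.00184) passed in all 16 distinct alternatives.

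RIMS4, a short member of the RIM family, had a difference of 1.78 ± 0.22 (SE, adjusted p = 0.00573), lost only without control replicate 1 (adjusted p = 0.0543). The Rab GTPase RAB27A had 1.57 ± 0.25 (SE, adjusted p = 0.0131), and SYTL2, one of its effectors, 1.40 ± 0.29 (SE, adjusted p = 0.032). Both were dim, well above background on 1 control array and 2 LOX-PP arrays, and neither passed with quantile normalization or with normexp, which gave 0.59 for RAB27A and 0.62 for SYTL2. VAMP8, a SNARE of granule release outside the nervous system, had 1.19 ± 0.27 (SE, adjusted p = 0.0373). On the other side AMPH, which acts in vesicle endocytosis, had -2.82 ± 0.46 (SE, adjusted p = 0.0223) and was well above background on 3 control arrays and 1 LOX-PP array. ESYT2, a tether between the endoplasmic reticulum and the plasma membrane, had -1.24 ± 0.21 (SE, adjusted p = 0.0305). In all 7 genes the groups did not overlap. RAB27A was lost without control replicate 1 or 2 (adjusted p = 0.0777 and 0.068). SYTL2 was lost without control replicate 1, 2 or 3 or LOX-PP replicate 2 (adjusted p = 0.0735 to 0.152), and VAMP8 without control replicate 1 or 2 or LOX-PP replicate 2 or 3 (adjusted p = 0.0904 to 0.193). AMPH was lost without any control replicate or LOX-PP replicate 3 (adjusted p = 0.0558 to 0.111), and ESYT2 without any array other than LOX-PP replicate 1 (adjusted p = 0.0541 to 0.179).

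A further list held 22 regulators of neuronal and neuroendocrine genes, of which 14 were tested, 0 were higher and 2 lower (14.3%, beside 5.66% of all tested probes in either direction), and 1 of these is described here. ELAVL3, an RNA-binding protein of neurons, was at -1.80, -1.86 and -1.89 in the control and at -5.50, -5.90 and -6.64 in the LOX-PP cells, where it was well above background on 1 of 3 arrays. The groups were far apart, and the difference of -4.29 ± 0.32 (SE, adjusted p = 0.0015) passed in all 15 distinct alternatives in which it was tested, with -2.74 under normexp.

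Genes that mark neurons also differed between the groups. Of 9 neuronal markers, all tested, 4 were lower and 1 higher in the LOX-PP cells, beside 2.36% and 3.31% of all tested probes. The neurofilament genes NEFL and NEFH had differences of -3.86 ± 0.21 (SE, adjusted p = 0.000465) and -4.13 ± 0.25 (SE, adjusted p = 0.000746), and a second NEFH probe had -2.05 (adjusted p = 0.0463). The growth cone gene GAP43 had -3.20 ± 0.43 (SE, adjusted p = 0.0119) and MAP2, of dendrites, -2.87 ± 0.31 (SE, adjusted p = 0.00524), or -1.90 with normexp or a common floor. STMN2, a neuronal regulator of microtubules, rose by 4.11 ± 0.74 (SE, adjusted p = 0.0238). GAP43 was lost without control replicate 1 or 2 (adjusted p = 0.0718 and 0.0678), and STMN2 without control replicate 1 or 2 or within slide 1 (adjusted p = 0.116, 0.114 and 0.0501). TUBB3, RBFOX3, NEFM and DCX did not pass. The summed linear level of the 9 genes was 84.3 to 96.3 in the control and 45.6 to 88.0 in the LOX-PP cells, and the ranges overlapped. The largest part of that sum was TUBB3, at 44.8 to 47.4 in the control and 31.9 to 66.8 in the LOX-PP cells. TUBB3 alone thus ranged more widely in the LOX-PP cells than in the control, and the sum without it was not computed. The overlap of the sums therefore does not show how the other neuronal markers compare as a set.

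**Figure D5:**
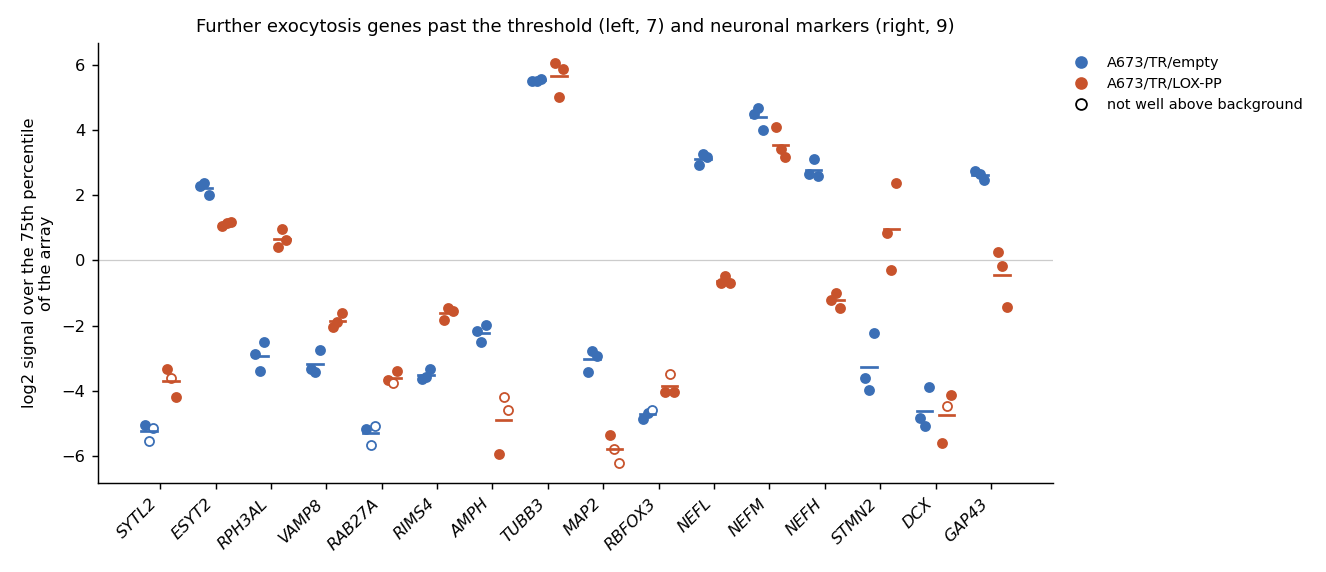
Log2 signal over the 75th percentile of the array for the 7 further exocytosis genes that passed (left, from SYTL2 to AMPH) and the 9 neuronal markers (right, from TUBB3 to GAP43). Points are single arrays (3 per group), lines group means and open points arrays on which the probe was not well above background; RPH3AL and STMN2 are higher, and NEFL, NEFH, GAP43 and MAP2 lower, in the LOX-PP cells.

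Markers of chromaffin and neuroendocrine cells passed in 0 of 4 tested genes, with a summed level of 64.6 to 74.1 in the control and 44.5 to 52.3 in the LOX-PP cells. That sum was mostly a single gene, GRP, at 62.1 to 71.6 and 42.3 to 50.7, which did not pass (-0.63, adjusted p = 0.215), and DBH had a difference of 0.07. DDC was well above background on 1 control array and PNMT on 2, and neither was on any LOX-PP array. Of the fibroblast markers 2 of 5 tested were lower, beside 2.36% of all tested probes, COL1A2 (-3.04 ± 0.21, SE) and LUM (-2.42 ± 0.37, SE). COL1A1 had a difference of 0.53 with groups that did not overlap and did not pass (adjusted p = 0.175). The summed level was 39.7 to 45.3 against 11.5 to 16.0, of which COL1A2 made up 33.1 to 37.4 against 4.13 to 5.33. LUM was well above background on 2 control arrays and 1 LOX-PP array, and its difference was -1.45 with normexp and -1.66 with a common floor. The LUM call was lost without control replicate 1 or 2 or LOX-PP replicate 2 or 3 (adjusted p = 0.0521 to 0.101), whereas that of COL1A2 passed in all 16 distinct alternatives. Epithelial markers (57.9 to 59.4 against 45.4 to 68.7, with CDH1 well above background on 0 arrays) and blood markers (0.537 to 0.702 against 0.536 to 1.10) had overlapping ranges and 0 genes that passed. The epithelial sum was mostly KRT18, at 56.2 to 57.9 against 43.6 to 66.4. All samples were cultures of the A673 line, so that these markers describe genes expressed in that line and not a mixture of tissues. In bulk RNA fewer cells expressing a gene and less RNA per cell cannot be told apart. The part of the neuronal, neuroendocrine and fibroblast markers in the differences of the exocytosis genes was not tested.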

How the data were processed

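RNA of 3 A673/TR/empty and 3 A673/TR/LOX-PP cultures, described as separate experiments, was hybridised to 6 arrays. The authors deposited spot intensity from Agilent Feature Extraction (version 10.7, per the submitters' processing notes), background-corrected by that software, and processed log2 values, which equal the scaled log2 signal centred per probe within 0.02. Control spots and outlier spots (213 to 353 per array) were left out, spots of the same probe were averaged as log2 intensity, and values were scaled by subtracting each array's 75th percentile. Of 50599 probes, 28170 were named by RefSeq accession through a table of a later assembly than that of the array design, so coordinates are given only for RefSeq upstream sequences. Tests used limma (version 3.58.1, R 4.3.3) without a block. On simulated arrays, 57 of 200 probes changed by 2 on the log2 scale and 151 of 200 changed by 3 were recovered, with 4 and 6 wrong calls, and with nothing changed there were 0 calls. The simulated noise was normal and independent between probes and arrays. Deviations shared by many probes of an array, or by a slide, were therefore not part of it, and false calls from these were not tested.

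Genes given array by array are those that passed, those whose groups did not overlap with a difference of at least 1, and the brightest of each role. Of the other lists, genes that passed are named, and of the cell type markers the Ewing sarcoma list. 1 of the regulators that passed is not reported here. Other genes named were chosen after their values were seen. Members and lists were chosen with earlier results of these data known. The alternatives comprised quantile normalization, scaling on the median of detected probes, normexp background correction (offset 50) on the median spot signal, the authors' processed values, no filter or a stricter one, a common floor, the slide as a block or slide 1 alone, a replicate block, the methods' t-test, each array left out, and averaging the tested probes per gene. The number of arrays limits the precision.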

Additional observations from a re-analysis of the deposited data

How the results depend on the processing

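Across 18 alternatives, of which both slide settings repeat the fit without LOX-PP replicate 1, the 26 single genes followed gave 460 values, of which 352 kept their direction and side of the threshold, 101 kept only their direction and 7 changed sign. The 7 belong to genes that did not pass: NSF changed to -0.10 without a filter on dim probes and -0.036 without control replicate 3 (-0.036 to 0.15 over all arrays left out), and CHGA to 0.11 with quantile normalization, 0.11 with normexp, 0.01 without control replicate 1, 0.18 without control replicate 2 and 0.40 without LOX-PP replicate 3 (-0.69 to 0.40 over all arrays left out). Of the 39 genes 5 passed, against 1 without a filter, 2 with a replicate block and 1 with the methods' t-test, and between 1 and 4 with each array left out. Of the further exocytosis genes 7 passed, against 2 without a filter, 3 with a replicate block and 3 with the t-test, and between 1 and 10 with each array left out. Their median moved from -0.09 to -0.23 without a filter. Of the regulators 2 passed, against 1 each without a filter, with all 6 arrays well above background (GATA3, 1.37, adjusted p = 0.0396, in place of both), with a common floor, with a replicate block and with the t-test, and between 1 and 2 with each array left out. Quantile normalization and normexp moved the median difference of all tested probes from 0.13 to -0.03 and -0.02. Over all probes 1849 passed, against 516 without a filter, 860 with a replicate block, 566 with the t-test, and 407, 444, 892 and 1037 without control replicate 1 or 2 or LOX-PP replicate 2 or 3. The replicate numbers are not shown to pair the arrays, since the deviations of same-numbered arrays correlated at 0.27, -0.39 and 0.23. The median of the listed genes tested under each setting (23 to 39) ranged from -0.07 to 0.17. The causes of these changes were not tested, except that the setting without a filter tested more probes and those leaving out an array used fewer. Dim genes are limited by background, as the net signal of negative control spots ranged from 64.4 to 575 between arrays.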
